A study of Mus musculus with 20 samples.

Results

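The 8 genes described here, Ppp1r16b, Sbk1, Fam107b, Ipo5, Trabd2b, Kctd12, Ostn and Myo15, were selected on the measured difference of both SCA7 groups from late wild-type mice. They have small p-values, or large and well-measured fold changes, in both contrasts. All 8 symbols were found in the deposited read count table, in which 21897 genes were protein-coding and 14862 of these passed the filter on low counts in the late cerebella, the 8 included. Every member was lower in SCA7 mice. That direction, its size and its p-value were what the choice used, so they are given below as a description and without a test.

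RNA was sequenced from 20 mouse cerebella, 1 per library, in 5 conditions, all on the C57BL/6J strain. The early set, labelled 9 weeks, comprised WT mice, 3 of them untreated and 3 with AAV-shA4. The late set, labelled 25 weeks, comprised 4 untreated WT mice and 10 SCA7 140Q/5Q knock-in mice, of which 5 had AAV-shSCR and 5 had AAV-shA4. SCA7 mice carry a knocked-in expanded CAG repeat in an Atxn7 allele, AAV-shA4 delivers a short hairpin RNA directed at CAG repeats from an H1 promoter, and AAV-shSCR delivers a scrambled hairpin. The vector also carries eGFP under a CMV promoter, and untreated mice received saline according to the methods, so both SCA7 groups had a vector and the late WT mice had none. Genotype and vector therefore cannot be told apart in the late contrasts with WT mice. The labels do not give the day from which weeks are counted. In the study's text the 9 weeks of the early set run from the injection, and the late set is placed somewhat earlier after injection than its label, so 9 and 25 weeks are used here as the names of the sets and not as ages.

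SCA7 is a polyglutamine ataxia in which the protein ataxin-7, a subunit of a transcriptional coactivator complex, carries an expanded glutamine tract. Purkinje cells, the only output neurons of the cerebellar cortex, are among the cells that degenerate. The 8 genes do not form a pathway. Ppp1r16b encodes a membrane-associated targeting subunit of protein phosphatase 1, and Sbk1 a serine/threonine kinase with an SH3-binding domain. Kctd12 is an auxiliary subunit of the GABA-B receptor that speeds its desensitization. Ipo5 is a nuclear import receptor of the importin-β family, Trabd2b a membrane metalloprotease that cleaves Wnt ligands and so inhibits them, Ostn a secreted peptide that binds the natriuretic peptide clearance receptor, and Myo15 an unconventional myosin of hair cell stereocilia. Fam107b belongs to a small family with the actin-associated Fam107a.

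The genes lie on 6 chromosomes of the GRCm38 build. Fam107b (chr2:3570488-3782142) and Ppp1r16b (chr2:158665398-158766334) share chromosome 2 and Kctd12 (chr14:102976581-102982637) and Ipo5 (chr14:120911224-120947999) share chromosome 14. Atxn7 is also on chromosome 14, 88.9 Mb from Kctd12 and 107 Mb from Ipo5. Trabd2b lies at chr4:114406724-114615098, Sbk1 at chr7:126272619-126295016, Myo15 at chr11:60469339-60528369 and Ostn at chr16:27307489-27351212. Kctd12 is on the minus strand and the other 7 genes are on the plus strand. No transcript of the 8 genes holds more than 3 CAG in a row in the reference. Of the exonic bases of Kctd12, 64.2% are shared with Gm26778, a long noncoding RNA gene of the opposite strand, or with Mir5130, a microRNA gene of the same strand. The strand setting of the read counting is not stated, so it is not known how reads over the bases shared by Kctd12 and Gm26778 were counted. The antisense gene Gm32312 covers 12.9% of the exonic bases of Ostn, and the other 6 genes share no exonic base with another gene.

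RefSeq promoter windows, which span 250 bases before to 50 bases after a transcription start on GRCm38.p6, were held for 5 of the 8 genes. Ppp1r16b and Ipo5 have 2 windows each, so 7 windows were read, and there was no entry for Sbk1, Trabd2b and Ostn. The windows of 4 genes are printed because they span the range of base composition among the first windows of the members. Capitals mark GGGCGG, the core of the GC box bound by Sp1 factors, or its reverse complement.
Kctd12 promoter (chr14:102982588-102982887, - strand): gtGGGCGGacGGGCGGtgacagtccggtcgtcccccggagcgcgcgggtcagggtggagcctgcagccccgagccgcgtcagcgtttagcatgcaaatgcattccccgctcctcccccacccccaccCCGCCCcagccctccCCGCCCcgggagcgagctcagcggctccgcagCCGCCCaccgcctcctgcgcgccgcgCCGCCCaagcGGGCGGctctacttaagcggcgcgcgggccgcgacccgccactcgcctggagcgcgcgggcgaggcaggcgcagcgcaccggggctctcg
Ipo5 promoter (chr14:120910944-120911243, + strand): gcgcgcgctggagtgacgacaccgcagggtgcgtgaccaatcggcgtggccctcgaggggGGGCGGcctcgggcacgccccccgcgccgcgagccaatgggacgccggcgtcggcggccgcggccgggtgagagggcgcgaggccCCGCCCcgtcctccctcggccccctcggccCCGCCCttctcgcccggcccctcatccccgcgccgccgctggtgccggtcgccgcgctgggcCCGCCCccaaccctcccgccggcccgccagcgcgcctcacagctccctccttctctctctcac
Fam107b promoter (chr2:3713208-3713507, + strand): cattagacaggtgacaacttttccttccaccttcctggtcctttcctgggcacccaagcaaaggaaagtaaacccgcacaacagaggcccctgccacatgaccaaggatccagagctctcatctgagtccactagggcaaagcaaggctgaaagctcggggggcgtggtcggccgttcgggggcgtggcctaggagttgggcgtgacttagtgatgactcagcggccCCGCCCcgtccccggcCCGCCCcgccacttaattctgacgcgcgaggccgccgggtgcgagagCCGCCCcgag
Myo15 promoter (chr11:60469089-60469388, + strand): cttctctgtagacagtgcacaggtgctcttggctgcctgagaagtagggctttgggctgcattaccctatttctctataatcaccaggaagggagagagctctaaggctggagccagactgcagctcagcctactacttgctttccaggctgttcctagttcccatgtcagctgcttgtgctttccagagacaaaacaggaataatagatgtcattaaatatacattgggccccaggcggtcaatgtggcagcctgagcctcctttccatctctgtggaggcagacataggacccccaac
The Kctd12 window held GGGCGG 7 times, that of Ipo5 4 times and that of Fam107b 3 times, and the Myo15 window did not hold it. GC content was 78.0%, 80.7%, 63.3% and 51.0% in the same order, and the number of CpG dinucleotides was 45, 47, 22 and 1, against a median of 52.7% and 7 CpG over 32851 mouse windows. The motif TATAAA was found once, in the second window of Ipo5. CACGTG, TGACGTCA and AGGTCA were not found in the 7 windows on either strand. GGGCGG was present in 35.7% of all windows, TATAAA in 13.6%, CACGTG in 7.15%, TGACGTCA in 1.79% and AGGTCA in 16.3%. A match is a description of these letters and not of a bound site.

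Reads counted on genes ranged from 31465586 to 54570503 per library, and the spread between mice of a condition exceeded sampling noise, the chi-squared of a pair of libraries being 4.74 to 25.6 times its degrees of freedom. Atxn7, the gene with the knocked-in repeat, had 48.5 ± 1.96 CPM (SD, n = 4) in late WT mice, 49.5 ± 2.92 CPM (n = 5) with AAV-shSCR and 48.1 ± 2.70 CPM (n = 5) with AAV-shA4 in SCA7 mice. None of these differences passed the edgeR test, with adjusted p = 0.724 for AAV-shSCR and 0.934 for AAV-shA4 against WT mice and 0.842 between the SCA7 groups. Atxn7 mRNA counts both alleles together. Among the cell type marker lists, all 8 Purkinje cell markers were lower in both SCA7 groups, and 6 were called lower with AAV-shSCR and 5 with AAV-shA4. Their summed level was 10242 to 11536 CPM in late WT mice, 7200 to 8038 CPM with AAV-shSCR and 7283 to 8489 CPM with AAV-shA4. The defining marker Pcp2 was at 551 CPM in late WT mice, and no Purkinje marker was near 0. Of 6 oligodendrocyte markers 2 were called lower in each SCA7 group, and their sum was 5515 to 6530 CPM in WT mice against 4042 to 4870 CPM with AAV-shSCR and 4485 to 5114 CPM with AAV-shA4. No granule cell, astroglial, microglial or choroid plexus and ependyma marker was called in either SCA7 group. The summed choroid plexus and ependyma level still ranged from 52.2 to 3810.0 CPM over the late libraries. By edgeR adjusted p under 0.05 alone, 2 of 8 granule cell markers passed with AAV-shSCR and 3 with AAV-shA4, all lower. Of 6 astroglial markers, 1 passed with AAV-shSCR and 2 with AAV-shA4, all lower. The astroglial list summed to 2422 to 2559 CPM in late WT mice, 2185 to 2363 CPM with AAV-shSCR and 2146 to 2585 CPM with AAV-shA4. Of 7 interneuron markers Eomes alone was called lower in both groups, and the list summed to 978 to 1049 CPM in WT mice, 817 to 892 CPM with AAV-shSCR and 860.5 to 924 CPM with AAV-shA4. Of 6 endothelial and blood markers Cldn5 was called lower in both groups and Hbb-bs higher with AAV-shSCR. The part of these shifts in the levels of the 8 genes was not tested. In RNA of a whole cerebellum, fewer cells of a type and less RNA per cell cannot be told apart.

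Levels are given as CPM, read counts scaled to library size with edgeR's TMM factors. All 10 SCA7 mice lay below all 4 late WT mice for each of the 8 genes. The choice of the genes favours that pattern, which 5.54% of all tested genes also showed. Ppp1r16b had the smallest p-value of all genes in both contrasts. In late WT mice it had 313, 318, 295 and 306 CPM. With AAV-shSCR the SCA7 mice had 191, 185, 189, 174 and 184 CPM, and with AAV-shA4 they had 188, 192, 199, 199 and 192 CPM. The gap between the lowest WT mouse and the highest SCA7 mouse was wider than the whole range of either SCA7 group. Against WT mice this gave log2 fold changes of -0.74 (SE 0.032) for AAV-shSCR and -0.67 (SE 0.032) for AAV-shA4.

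Sbk1 was the most abundant of the 8 genes per kilobase of exonic sequence, at 199 ± 8.16 CPM per kb in late WT mice. Late WT mice had 814, 870.2, 808 and 870.1 CPM. SCA7 mice had 506, 484, 492, 445 and 495 CPM with AAV-shSCR and 495, 532, 533, 544 and 510.4 CPM with AAV-shA4. The SCA7 groups overlapped each other and stayed far under the WT mice. Sbk1 log2 fold changes were -0.79 (SE 0.041) and -0.68 (SE 0.041).

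Kctd12, the GABA-B receptor subunit, had 301, 309, 255 and 286 CPM in late WT mice. It had 147, 151, 151, 136 and 153 CPM with AAV-shSCR and 157, 158, 183, 170.7 and 153 CPM with AAV-shA4 in SCA7 mice. One WT mouse was lower than the other 3 and was still above every SCA7 mouse. Kctd12 log2 fold changes were -0.96 (SE 0.058) and -0.81 (SE 0.058).

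Fam107b had 198, 223, 209 and 205 CPM in late WT mice. In SCA7 mice it had 99.6, 104, 99.0, 95.7 and 102.1 CPM with AAV-shSCR and 105, 99.1, 122, 112 and 95.2 CPM with AAV-shA4. The AAV-shA4 group was the more spread of the 2 SCA7 groups, with an SD of 10.5 CPM against 3.19 CPM with AAV-shSCR. Its log2 fold changes were -1.06 (SE 0.057) and -0.97 (SE 0.057).

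Ipo5 had the smallest fold change of the 8 genes. Late WT mice had 162.2, 170.8, 165.2 and 166.5 CPM, and SCA7 mice had 119.9, 116, 118, 116 and 122 CPM with AAV-shSCR and 125, 125, 125, 121 and 118 CPM with AAV-shA4. The nearest WT and SCA7 mice were as far apart as 162 and 125 CPM, and the log2 fold changes were -0.49 (SE 0.027) and -0.44 (SE 0.027).

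Trabd2b, the Wnt protease, had 35.3, 40.4, 35.0 and 35.1 CPM in late WT mice, of which the second mouse stood apart. SCA7 mice had 19.7, 19.1, 18.6, 18.9 and 18.5 CPM with AAV-shSCR and 16.5, 19.4, 19.4, 19.3 and 17.8 CPM with AAV-shA4. The log2 fold changes were -0.94 (SE 0.057) and -0.98 (SE 0.057), and Trabd2b and Myo15 were the 2 genes for which AAV-shA4 lay further from WT mice than AAV-shSCR.

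Ostn and Myo15 were the rarest and most strongly lowered members. Ostn had 2.19, 2.26, 1.65 and 2.06 CPM in late WT mice, which is 71 to 117 reads per library. SCA7 mice had 0.324, 0.538, 0.246, 0.377 and 0.396 CPM with AAV-shSCR and 0.599, 0.726, 0.640, 0.571 and 0.554 CPM with AAV-shA4. These values rest on 10 to 28 reads per library. The log2 fold changes were -2.44 (SE 0.19) and -1.72 (SE 0.18).

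Myo15 had 6.64, 8.02, 9.49 and 8.13 CPM in late WT mice. SCA7 mice had 1.65, 2.12, 2.43, 1.86 and 2.72 CPM with AAV-shSCR and 2.29, 2.15, 1.84, 1.84 and 1.94 CPM with AAV-shA4. The WT values vary more than those of the abundant genes, and the lowest of them is above the highest SCA7 value. The log2 fold changes were -1.90 (SE 0.14) and -1.997 (SE 0.14), the only ones besides Ostn beyond a log2 change of -1.5 in both groups.

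**Figure D1:**
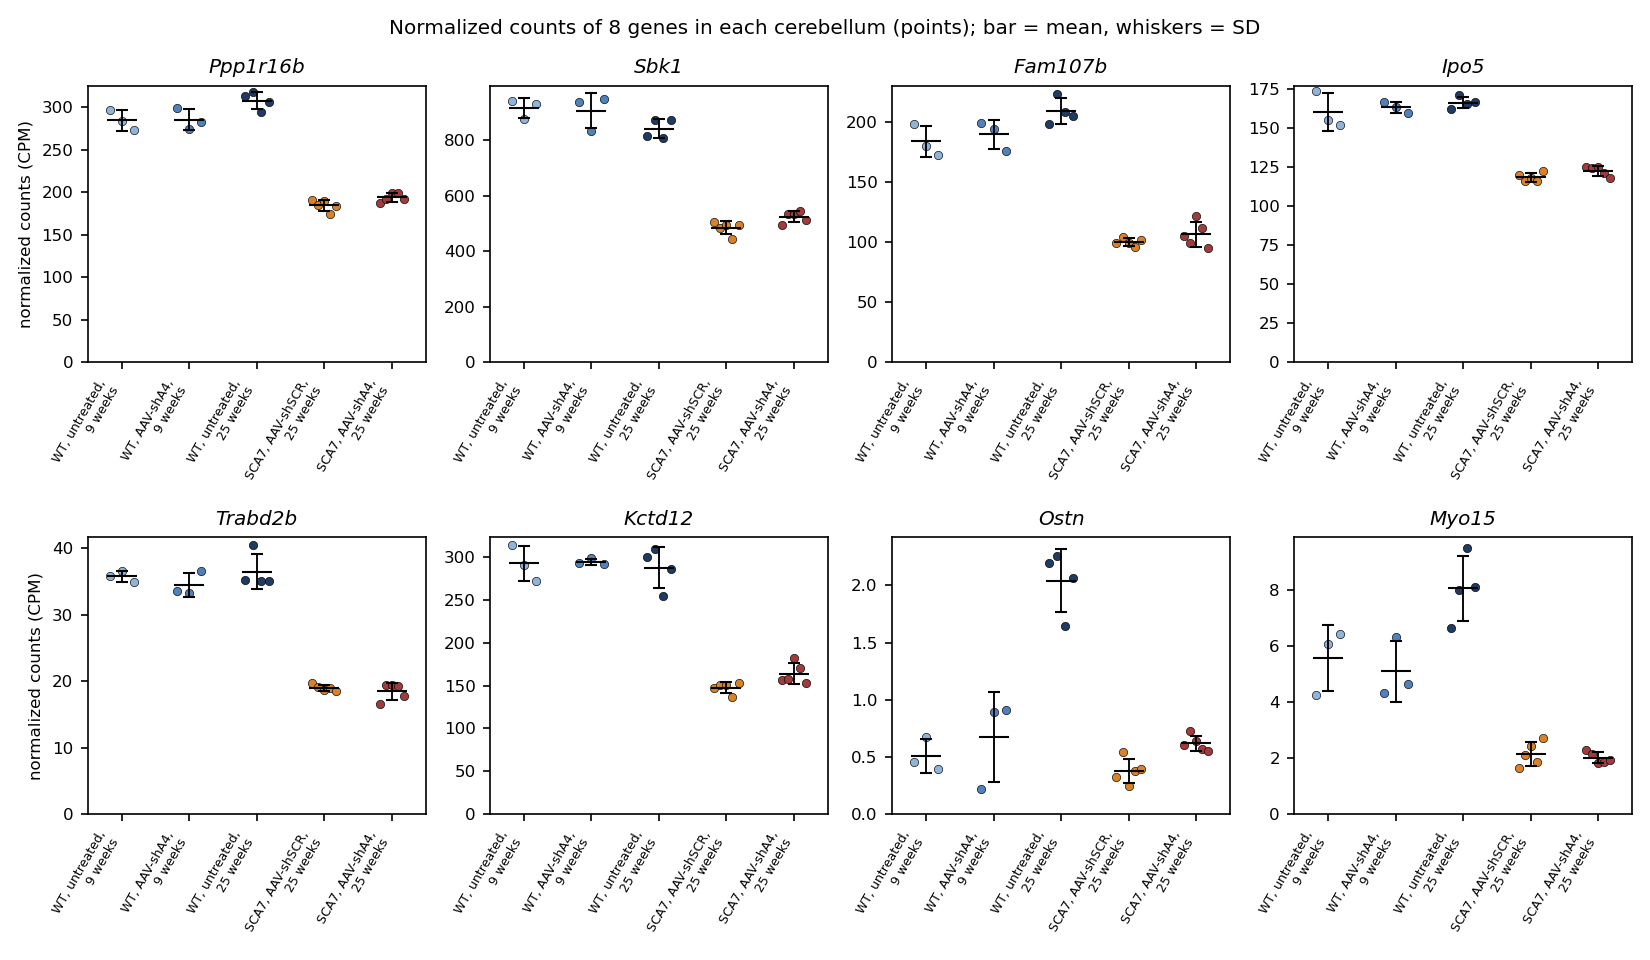
Normalized counts (CPM, vertical axes from 0) of each of the 8 genes in every cerebellum of the 5 conditions, with 1 point per mouse, the mean as a bar and the SD as whiskers. In all 8 panels the 10 SCA7 mice sit below the 4 late WT mice, and in the Ostn panel they sit among the 6 WT mice of 9 weeks.

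Per kilobase of exonic sequence the order in late WT mice was Sbk1, Fam107b at 48.2 ± 2.47, Kctd12 at 47.5 ± 3.96, Ppp1r16b at 34.8 ± 1.13, Ipo5 at 27.7 ± 0.6001, Trabd2b at 5.51 ± 0.401, Ostn at 1.43 ± 0.192 and Myo15 at 0.632 ± 0.0914 CPM per kb (SD, n = 4). Fam107b and Kctd12 differed by less than their SD. The order was the same when the median transcript length replaced the exonic length.

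All 8 genes passed the call rule, an adjusted p under 0.05 with a fold change above 1.3, in the lower direction in both contrasts, which the choice of the genes largely fixes. Over all tested genes 2.66% were called lower with AAV-shSCR, 2.27% with AAV-shA4 and 1.83% in both. For the 8 genes the median log2 fold change was -0.95 under AAV-shSCR and -0.89 under AAV-shA4, beside 0.0017 and 0.0061 for all genes. Both contrasts share the same 4 WT mice. When genes were ordered by the poorer of their 2 ranks by p-value, Ppp1r16b was at position 1, Fam107b 4, Sbk1 6, Trabd2b 8, Ipo5 12, Kctd12 23, Myo15 32 and Ostn 111. Genes outside the group stood between them, such as Grid2ip at position 2, with log2 fold changes of -0.95 and -0.88, and Dagla at position 3, with -0.74 and -0.68. Marcks, at position 5, was higher in SCA7 mice, with 0.59 and 0.56. Among the 272 genes called lower in both contrasts and ordered by mean fold change, Ostn was at position 2 and Myo15 at 4, between and after Kcnh3 at 1 and Car9 at 3. The other members stood further down by fold change, with Fam107b at 28, Trabd2b at 37, Kctd12 at 46, Sbk1 at 72, Ppp1r16b at 83 and Ipo5 at 213. The 8 genes are thus a selection of genes that stand high in at least 1 of these orders, and not a complete top list.

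Whether AAV-shA4 changed the genes in SCA7 mice was asked by comparing the 2 SCA7 groups. The choice of the genes did not use this contrast, although it used the libraries. It asked for a clear difference from WT mice in both SCA7 groups, and so left out genes that AAV-shA4 brought back to the WT level. The choice therefore favours small differences between the SCA7 groups, and the 8 genes cannot show how AAV-shA4 acts on SCA7 genes in general. Of the 8 genes 6 were higher and 2 lower with AAV-shA4, and none was called by edgeR's quasi-likelihood test. No gene of the whole table was called either (0.0% of 14862). At an unadjusted p under 0.05, 1222 genes (8.22%) passed, and DESeq2 called 4 genes, all higher with AAV-shA4 and none of them a member. By the same unadjusted limit 4 of the 8 genes passed, Ppp1r16b, Sbk1, Kctd12 and Ostn.

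Ostn differed most. Its 5 values with AAV-shA4, 0.554 to 0.726 CPM, were all above the 5 with AAV-shSCR, 0.246 to 0.538 CPM, a separation that 1.49% of all tested genes showed in one direction or the other. The log2 fold change was 0.72 (SE 0.20, 95% interval 0.29 to 1.15), with an adjusted p of 0.483 by edgeR. An exact permutation test, two-sided, gave 0.00794, which is the smallest p that 5 against 5 mice allow, before any adjustment. The mean with AAV-shA4 lay 14.5% of the way from the AAV-shSCR mean to the late WT mean.

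Kctd12 was 11.1% higher with AAV-shA4, at 164.2 ± 12.3 against 148 ± 6.70 CPM (SD, n = 5), with a log2 fold change of 0.15 (SE 0.055; edgeR adjusted p = 0.532). For 4 of 5 AAV-shA4 mice the value was above every AAV-shSCR mouse. Sbk1 had 523 ± 19.8 against 484 ± 23.5 CPM (0.11, SE 0.039; edgeR adjusted p = 0.532), and Ppp1r16b had 194 ± 5.01 against 185 ± 6.55 CPM (0.070, SE 0.030; edgeR adjusted p = 0.584). These means covered 11.8%, 10.8% and 7.56% of the distance to the late WT mean. The groups overlapped for all 3 genes. The same share was 8.91% for Ipo5 and 5.97% for Fam107b, and it was negative for Trabd2b (-2.78%) and Myo15 (-2.46%). The distance to the late WT mean was itself part of the choice of the genes.

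The other 4 genes were not past the unadjusted limit. Fam107b had a log2 fold change of 0.089 (95% interval -0.026 to 0.20) and Ipo5 of 0.050 (-0.0048 to 0.11). Trabd2b had -0.039 (-0.16 to 0.078) and Myo15 -0.10 (-0.40 to 0.19). Their edgeR adjusted p ranged from 0.633 to 0.880. For Trabd2b the sign depended on 1 mouse, since the log2 fold change was 0.00036 without the first AAV-shA4 mouse. For the 7 genes other than Ostn, the upper limit of the interval was at most 0.27 on the log2 scale, that of Kctd12.

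**Figure D2:**
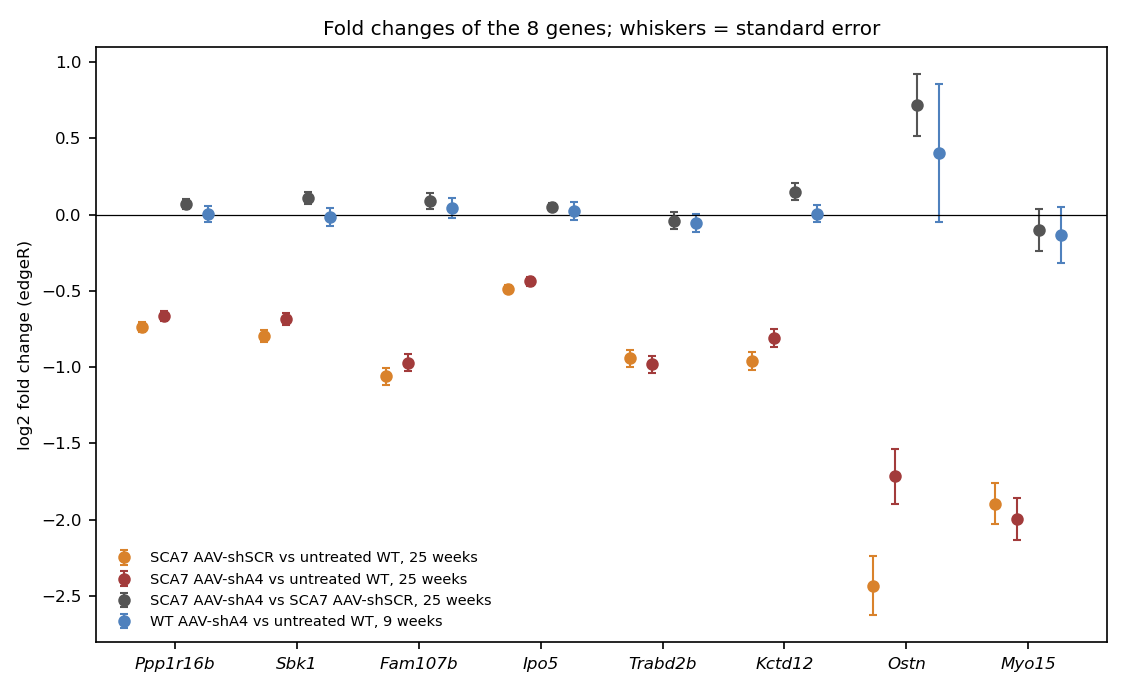
Log2 fold changes from edgeR (vertical axis) of the 8 genes in 4 contrasts, with the standard error as whiskers. The 2 contrasts with late WT mice, by which the genes were chosen, lie between -0.44 and -2.44, whereas the treatment contrast in SCA7 mice and that in WT mice of 9 weeks lie near 0 for all genes except Ostn.

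Libraries that had no part in the choice of the genes come from the WT mice of 9 weeks, in which AAV-shA4 was compared with no vector. None of the 8 genes was called, beside 0.0543% of 14733 genes tested, and 5 were higher and 3 lower. The log2 fold changes ran from -0.13 for Myo15 (95% interval -0.54 to 0.27) to 0.40 for Ostn (-0.59 to 1.40), with edgeR adjusted p from 0.761 to 0.989. The 6 genes other than Ostn and Myo15 had log2 fold changes between -0.055 and 0.044, and their intervals stayed between -0.19 and 0.18. Ppp1r16b had 285 ± 12.2 CPM without vector and 286 ± 12.5 CPM with AAV-shA4 (SD, n = 3). Sbk1 had 914 ± 35.1 and 905 ± 62.4 CPM, and Kctd12 had 293 ± 20.8 and 295 ± 3.44 CPM. The 2 groups overlapped for all 8 genes, while 16.0% of all genes tested were separated. Exact permutation tests with 3 against 3 mice cannot go below p = 0.1. Ostn had 0.452, 0.674 and 0.395 CPM untreated and 0.217, 0.894 and 0.907 CPM with AAV-shA4, with 8 reads in the lowest library. The early Ostn interval is wide enough to hold the log2 fold change between the SCA7 groups, 0.72. The 2 contrasts differ in control, genotype and set of libraries, so this overlap is a description only. Leaving out 1 mouse moved the Ostn value from 0.14, without AAV-shA4 mouse 2 or 3, to 0.82, without AAV-shA4 mouse 1, and it was 0.66 without untreated mouse 2. The Myo15 value moved from -0.32, without AAV-shA4 mouse 2, to -0.014, without untreated mouse 3.

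Of the untreated WT mice, those labelled 25 weeks entered the choice of the genes, so the levels at 9 and 25 weeks are set side by side without a test. Ostn was 4.02-fold higher in the late mice, at 2.04 ± 0.274 CPM (n = 4) against 0.507 ± 0.148 CPM (n = 3), and Myo15 1.44-fold higher, at 8.07 ± 1.17 against 5.59 ± 1.18 CPM. Sbk1 was lower in the late mice, with a ratio of 0.920. The early and late mice did not overlap for these 3 genes, nor for 33.7% of all tested genes. The ratios of the other 5 genes ran from 0.983 to 1.14 and their ranges overlapped. The labels name no batch. Age and any processing of the 2 sets of libraries go together, so the 2 cannot be told apart here.

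Set against the 6 WT mice of 9 weeks, all 10 SCA7 mice were lower for 7 of the 8 genes, a pattern shown by 7.29% of all tested genes. The exception was Ostn. Low values in these SCA7 libraries were part of the choice of the genes, which favours the pattern. Genotype, age and set of libraries differ together in this comparison. The SCA7 mice had 0.246 to 0.726 CPM of Ostn and the early WT mice 0.217 to 0.907 CPM, and no SCA7 mouse was below the lowest early WT mouse. Ordered by their means, the conditions ran from AAV-shSCR SCA7 mice through untreated WT mice of 9 weeks, AAV-shA4 SCA7 mice and AAV-shA4 WT mice of 9 weeks to late WT mice. In this order each of the first 3 conditions overlapped the next, and the late WT mice did not overlap the condition before them. Myo15 had 4.24 to 6.45 CPM in early WT mice and so lay between late WT and SCA7 mice, without overlap with the SCA7 mice.

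**Figure D3:**
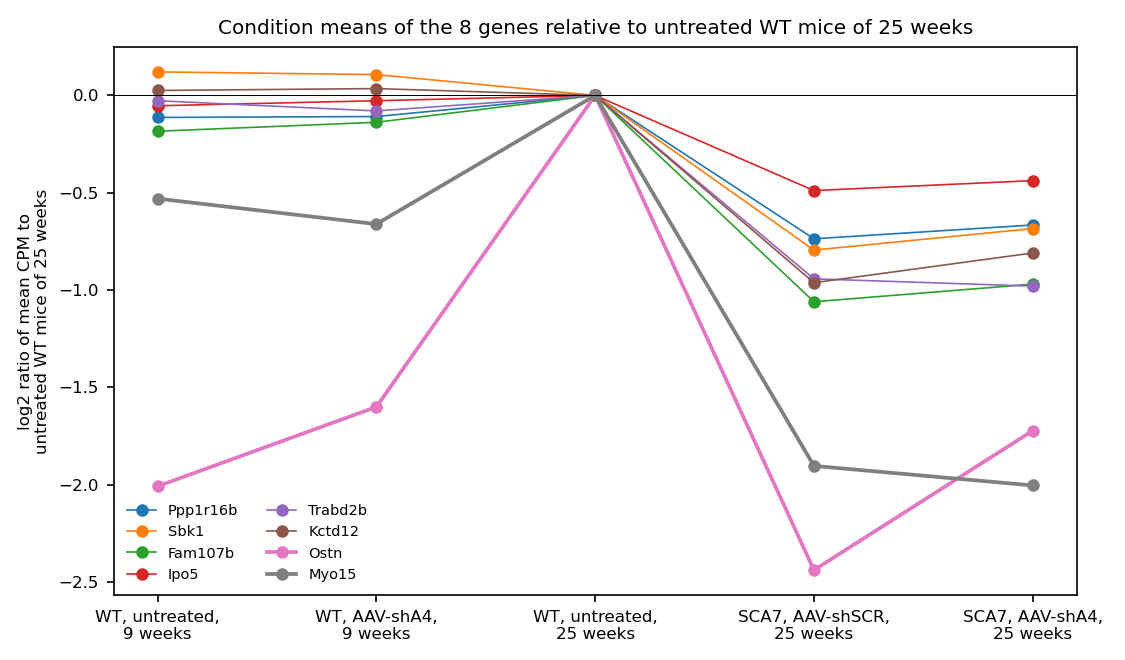
Log2 ratio of the mean CPM in each of the 5 conditions to that of untreated WT mice of 25 weeks, with 1 line per gene, drawn to guide the eye between unordered conditions. For 6 genes both WT conditions of 9 weeks lie near 0, whereas Ostn and Myo15, in thicker lines, are lower in the early mice as well.

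In some conditions, though not in all, the mouse that was high for one member was also high for several others. The second late WT mouse was above its group mean for all 8 genes and the highest of the 4 for 7. In the AAV-shA4 SCA7 group, the fifth mouse was below the group mean for all 8 genes and the third was the highest for 5. The fourth AAV-shSCR mouse was the lowest for 4. The highest values of that group were split over mice 1, 2 and 5, with 3, 2 and 3 genes. Those of the early AAV-shA4 mice were split as 3, 2 and 3. These mice share their libraries across genes, so the 8 genes are not independent replicates of a condition.

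For each gene, the gene with the most similar profile over the 5 condition means was sought among 13350 genes, by the root mean square difference of log2(CPM + 0.1) after centring. Ipo5 was nearest to Shank2, a postsynaptic scaffold protein, at 0.00998, and Ppp1r16b to Arhgef33, at 0.0107. Trabd2b was nearest to the potassium channel gene Kcnk13 at 0.037, Sbk1 to Dagla, an enzyme of endocannabinoid synthesis, at 0.044, Kctd12 to the phosphatase gene Dusp5 at 0.045 and Fam107b to the histamine receptor gene Hrh2 at 0.047. These differences are small beside the median over all genes, 0.23 for Ipo5 to 0.46 for Trabd2b. Ostn and Myo15 had no such close neighbour. Ostn was nearest to the kinase gene Ptk2b at 0.24 and Myo15 to Th, which encodes tyrosine hydroxylase, at 0.24. Ptk2b had 17.9 CPM in late WT mice, 6.36 and 8.18 CPM in the SCA7 groups and 6.68 CPM in untreated early mice, and Th had 17.0, 6.10, 5.88 and 10.5 CPM in the same order. Among the 8 genes themselves, the closest pair was Sbk1 and Kctd12, at 0.055. The likeness is a description over 5 means, 3 of which were used to choose the genes.

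The genes with related functions were described as 8 lists of 86 genes, of which 79 were tested. With AAV-shSCR 6 were called lower and 1 higher (8.86%, beside 4.02% of all genes), and with AAV-shA4 5 were called lower and 1 higher (7.59%, beside 3.45%). Their median log2 fold changes were 0.00086 and -0.0092, and none was called between the SCA7 groups. The lists were chosen with earlier results of these data known, so these shares are a description and not a test.

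Around Kctd12, the GABA-B receptor subunit gene Gabbr2 was called lower in both groups, with log2 fold changes of -0.47 with AAV-shSCR (adjusted p = 2.23e-08) and -0.50 with AAV-shA4 (adjusted p = 1.29e-08). Gabbr1, which encodes the ligand-binding subunit, had -0.36 (adjusted p = 2.08e-07) and -0.32 (adjusted p = 7.56e-07), under the fold limit. The lowest of the 8 genes on this list was the auxiliary subunit gene Kctd16, at -0.94 (adjusted p = 0.0581), and the highest the channel gene Kcnj5, at 0.75 (adjusted p = 0.161). These are edgeR values for AAV-shSCR, and neither gene was called.

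None of the 25 genes of nuclear transport listed with Ipo5 was called in either group. Their range with AAV-shSCR was -0.18 for Xpo1, the main export receptor, to 0.078 for Xpo5, and the import receptors Ipo7 and Kpnb1, which act beside Ipo5, had -0.078 and 0.0048. None of the 7 catalytic and targeting subunit genes listed with Ppp1r16b was called either, and they ranged from -0.10 for Ppp1r16a, its closest relative, to 0.079 for Ppp1r12a. Fam107a, listed with Fam107b, had -0.22 and was not called. Sbk3, listed with Sbk1, was called lower, with -0.47 (edgeR adjusted p = 0.0419) and -0.65 (adjusted p = 0.00753).

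In the natriuretic list of Ostn, Npr1, a guanylyl cyclase receptor for natriuretic peptides, was called lower at -0.71 (edgeR adjusted p = 2.83e-06) and -0.68 (adjusted p = 4.71e-06). Corin, the protease that activates the atrial peptide precursor, was called lower at -0.69 (adjusted p = 0.000426) and -0.63 (adjusted p = 0.000946). Npr3, the clearance receptor to which Ostn binds, had -0.11 and -0.40 and was not called. Npr2, the highest of the list with AAV-shSCR, had 0.13 (edgeR adjusted p = 0.00475), under the fold limit. With AAV-shA4 it had 0.035 (edgeR adjusted p = 0.492). In the myosin list of Myo15, Myo10, a filopodial myosin, was called lower at -0.53 (edgeR adjusted p = 1.75e-07) and -0.51 (adjusted p = 3.55e-07). Myo1a was called lower with AAV-shSCR alone, at -0.63 (adjusted p = 0.0218) against -0.28 with AAV-shA4 (adjusted p = 0.338), while the difference between the SCA7 groups itself had an adjusted p of 0.609. The list ran from -0.93 for Myo18b to 0.40 for Myo1g, neither of them called, and Whrn and Eps8, the stereocilia cargoes of Myo15, had -0.049 and 0.13. Of the Wnt antagonists listed with Trabd2b, Dkk3 was called higher, at 0.40 (edgeR adjusted p = 0.00848) and 0.54 (adjusted p = 0.00111), and Sfrp2 was the lowest at -0.64 (adjusted p = 0.218).

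**Figure D4:**
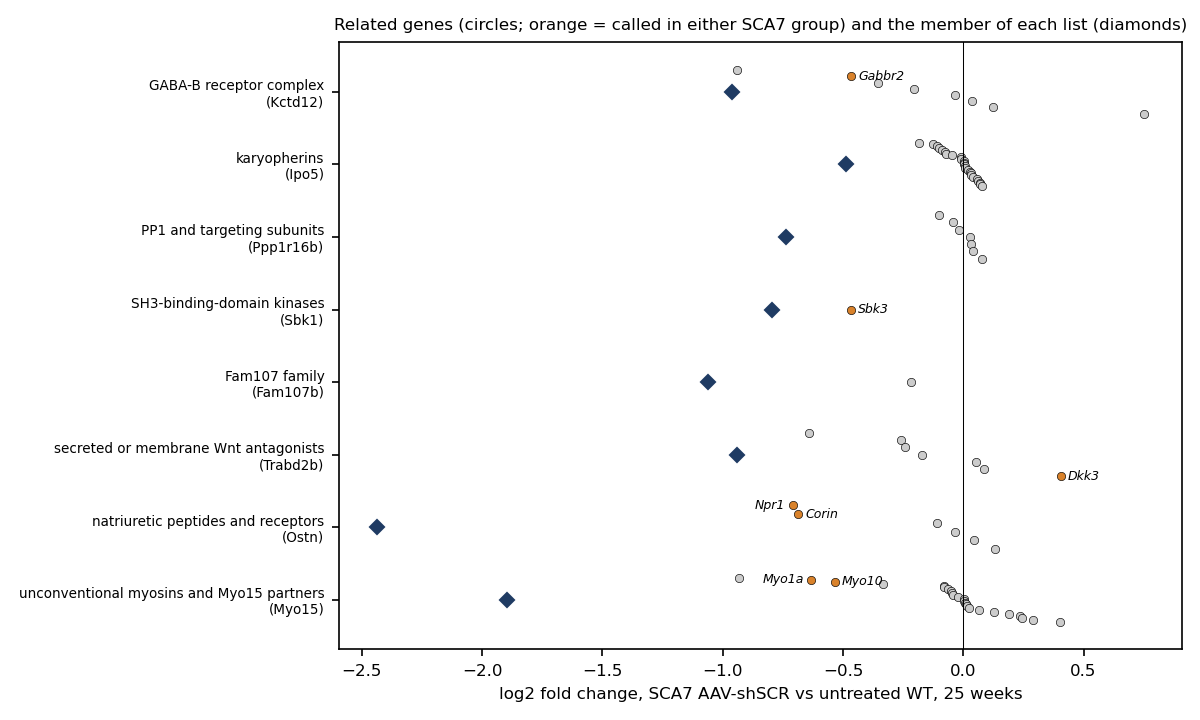
Log2 fold change of AAV-shSCR SCA7 mice against untreated WT mice of 25 weeks (horizontal axis) for the 79 tested related genes in 8 lists (circles, orange where called in either SCA7 group) and for the member of each list (diamonds). The members, chosen by this contrast, lie left of all circles of their lists, and 7 circles are orange, of which Dkk3 alone lies to the right of 0.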

How the data were processed

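Gene counts were deposited by the authors as raw reads per gene for 55401 genes in 20 libraries, without normalization. Per the methods and the submitters' processing notes, stranded polyA libraries were read as single reads, trimmed with cutadapt 1.10, cleared of ribosomal reads with Bowtie2 2.2.8, mapped to mm10 (GRCm38) with STAR 2.5.3a and counted with HTSeq 0.6.1p1. The strand setting is not given in the sources used here. Symbols, types, positions and lengths were taken from GENCODE M21, and tests cover its protein-coding genes.

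Conditions come from the sample labels. The late libraries (14862 genes tested) and the early libraries (14733 genes tested) were fitted separately in R 4.3.3 with edgeR 4.0.16, using TMM, filterByExpr (minimum count 10, minimum total 15), the quasi-likelihood test and Benjamini-Hochberg adjustment. A gene was called where it changed by more than 1.3-fold at an adjusted p below 0.05. CPM values use TMM over all 20 libraries. Intervals are 95% t intervals of the fit. Exact permutation tests used log2(CPM + 0.1). DESeq2 1.42.0, other filters and scalings, a replicate block and leaving out each mouse were alternatives. The fits were tested on simulated data. The labels name each mouse separately, and the numbers do not pair the mice.

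The members and lists were chosen with earlier results of these data known. Named genes are the members, Atxn7, the gene nearest in profile to each member, the lowest and highest of each related list with AAV-shSCR and each called list gene. Grid2ip, Dagla, Marcks, Kcnh3, Car9, Gabbr1, Ipo7, Kpnb1, Npr3, Whrn and Eps8 were added after their values were seen.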

Additional observations from a re-analysis of the deposited data

Results flagged for a closer look

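Of 24 groups of 4 or 5 mice examined for the 8 genes, 1 held a mouse that stood apart. The second untreated WT mouse of 25 weeks had 40.4 CPM of Trabd2b, and the next highest of the 4 had 35.3 CPM. The gap was 0.954 of the range of the group, above Dixon's limit of 0.829 for 4 samples. Chance flags about 1 in 20 such groups. The 10 SCA7 mice had at most 19.7 CPM, so Trabd2b was lower in SCA7 mice with and without this mouse.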

How the results depend on the processing

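The log2 fold changes of the 8 genes against late WT mice kept their sign and stayed called under all alternatives, with AAV-shSCR from -0.47 to -0.50 for Ipo5 and from -2.31 to -2.60 for Ostn. The choice of the genes by these contrasts in the same libraries largely fixes this. Over all genes, an adjusted p alone gave 2309 calls with AAV-shSCR and 2018 with AAV-shA4 in place of 597 and 513. Leaving out 1 mouse gave 498 to 596 and 452 to 572 calls. Between the SCA7 groups DESeq2 called 4 genes, and leaving out 1 mouse gave 0 to 0 calls. There the Ostn fold change ran from 0.59 to 0.88, with an edgeR adjusted p of 0.368 to 0.927 over the edgeR alternatives, and Trabd2b from -0.058 to 0.00036, the latter without the first AAV-shA4 mouse.

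The early count of 8 calls was the least stable. It was 26 without a filter on low counts, 53 with DESeq2, 16 over all genes of the table and 37 with the replicate block, and 1 to 43 when 1 mouse was left out. It was 1 without AAV-shA4 mouse 2 and 43 without AAV-shA4 mouse 3, and 4 and 2 without untreated mice 2 and 3. No member was called in any of these. Over all alternatives the early Ostn value ran from 0.14 to 0.82 and that of Myo15 from -0.32 to -0.014, neither with a change of sign. Fold changes near 0 turned sign in the early mice when 1 mouse was left out. Ppp1r16b ran from -0.033 (without the first AAV-shA4 mouse) to 0.036 and was -0.025 without untreated mouse 3. Sbk1 ran from -0.049 to 0.046 (without AAV-shA4 mouse 2) and was 0.0042 without the first untreated mouse. Ipo5 ran from -0.012 to 0.086 and Kctd12 from -0.040 to 0.061, each negative without untreated mouse 3.

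Same-numbered mice had correlations of -0.22 to 0.54, so the numbers were not taken as pairs. The replicate block gave 563, 488 and 0 calls in the late contrasts. The CPM per kilobase depends on the length used, an alternative chosen after seeing the data: Sbk1 had 199 CPM per kb with the exonic and 1464 with the median transcript length. Counts of 8 to 117 reads limit the precision of Ostn.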
